A study of Mus musculus with 8 samples.

Results

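The 10 SOX transcription factor genes *Sox2*, *Sox4*, *Sox5*, *Sox6*, *Sox7*, *Sox9*, *Sox11*, *Sox17*, *Sox18* and *Sox21* were followed in the epithelium and the mesenchyme of the distal tips of E12.5 mouse lungs. They were found by gene symbol among the 18996 genes of the array, and all 10 were present, each represented by the array feature with the highest mean signal over the 8 samples. The study hybridised 4 epithelium samples, all in Cy3, and 4 mesenchyme samples, all in Cy5, to 4 arrays of 2 colours with 1 sample of each tissue on an array. Dye and tissue therefore cannot be told apart, and every difference below holds both. Both tissues came from wild type embryos with no treatment named: the labels give the strain as C57bl/6J and the methods name C57BL/6, whereas the series description names BALb/c and 4 embryonic mice. Dissected tips were digested with dispase and the epithelium was pulled from the surrounding mesenchyme and mesothelium with needles, so the mesenchyme samples keep the mesothelium, and the labels call all 8 samples an organ homogenate. No label says whether samples with the same number came from the same embryo, or whether tips of several embryos were pooled.

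SOX proteins bind DNA through a high mobility group box, bend it, and act together with partner proteins. Related members fall into subgroups named by letter, and members of a subgroup often overlap in what they do. In the developing lung SOX9 marks the distal tip progenitors and SOX2 the proximal airway progenitors into which cells turn as they leave the tip. SOX9 works with SOX5 and SOX6 in cartilage, SOX4 and SOX11 act in progenitors of many embryonic tissues, and SOX7, SOX17 and SOX18 shape blood and lymphatic vessels.

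The start regions of 6 of the 10 genes were found in the RefSeq promoter table of GRCm38.p6, those of *Sox2*, *Sox4*, *Sox5*, *Sox6*, *Sox11* and *Sox21*. The intronless SOXB genes *Sox2* and *Sox21* and the intronless SOXC genes *Sox4* and *Sox11* are shown, because *Sox2* differed strongly between the tissues and the SOXC genes only slightly. Each sequence runs from 250 bases before the start site to 50 bases after it, and capitals mark every match, on either strand, of the SOX core ACAAT, the CCAAT box, TATAAA and the GC box GGGCGG.
*Sox2*, chr3:34649745-34650044, plus strand: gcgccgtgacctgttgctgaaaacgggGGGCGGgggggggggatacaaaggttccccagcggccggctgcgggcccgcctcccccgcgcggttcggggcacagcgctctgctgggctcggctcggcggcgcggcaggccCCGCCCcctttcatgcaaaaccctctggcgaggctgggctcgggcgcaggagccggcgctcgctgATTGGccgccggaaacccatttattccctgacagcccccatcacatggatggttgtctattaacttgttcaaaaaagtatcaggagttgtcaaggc
*Sox21*, chr14:118236981-118237280, minus strand: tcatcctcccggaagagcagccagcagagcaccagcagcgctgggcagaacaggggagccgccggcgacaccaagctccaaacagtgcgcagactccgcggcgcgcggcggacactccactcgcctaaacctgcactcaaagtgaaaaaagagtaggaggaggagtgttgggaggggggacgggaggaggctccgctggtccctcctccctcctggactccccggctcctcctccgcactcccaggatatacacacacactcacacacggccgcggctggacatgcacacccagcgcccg
*Sox4*, chr13:28953650-28953949, minus strand: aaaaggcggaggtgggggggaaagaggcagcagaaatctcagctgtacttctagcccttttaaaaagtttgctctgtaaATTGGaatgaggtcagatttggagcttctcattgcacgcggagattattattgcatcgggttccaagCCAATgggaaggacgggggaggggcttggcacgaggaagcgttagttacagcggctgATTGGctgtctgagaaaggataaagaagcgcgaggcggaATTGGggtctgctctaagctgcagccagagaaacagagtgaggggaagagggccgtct
*Sox11*, chr12:27342669-27342968, minus strand: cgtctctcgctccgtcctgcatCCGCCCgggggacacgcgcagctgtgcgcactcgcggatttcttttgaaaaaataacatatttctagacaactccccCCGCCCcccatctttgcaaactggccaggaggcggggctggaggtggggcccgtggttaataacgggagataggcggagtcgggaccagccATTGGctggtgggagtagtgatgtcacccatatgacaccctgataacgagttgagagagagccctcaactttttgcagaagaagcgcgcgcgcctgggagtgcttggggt

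None of the 4 start regions held ACAAT or TATAAA, which were present in 31.0% and 13.6% of all 32851 start regions of the table. CCAAT, found in 37.4% of all start regions, occurred 4 times at *Sox4*, where the matches began at -171, -104, -47 and -8 relative to the start site, and once each at *Sox2* (-46) and *Sox11* (-60). GGGCGG, in 35.7% of all start regions, occurred 2 times at *Sox2* and 2 times at *Sox11*, and *Sox21* held none of the 4 motifs. The regions of *Sox2*, *Sox21*, *Sox11* and *Sox4* held 27, 22, 21 and 12 CpG dinucleotides, against a median of 7 over the table. For *Sox5* the region listed held 1 match of ACAAT and 3 CpG dinucleotides. It spans 143947057 to 143947356 on the minus strand, inside a gene that reaches to 144782287, so it is not the outermost start of *Sox5*. *Sox6* has 6 start regions in the table, with 2 to 13 CpG dinucleotides. Each of the *Sox6* regions held 0 to 3 matches of ACAAT, 0 to 4 of CCAAT, 0 or 1 of TATAAA and 0 to 4 of GGGCGG. These matches are counts of letters in a window and are no evidence of binding.

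Across genes, samples of 1 tissue correlated at 0.995 to 0.997 and samples of different tissues at 0.964 to 0.968, and sample medians over all features lay between 4.05 and 4.14 on the log2 scale. The labels held for the genes that define each tissue: all 13 epithelial genes leaned to the epithelium (median 4.28), with *Foxa2* at 7.33 and *Cdh1* at 6.15, and all 14 mesenchymal genes to the mesenchyme (median -1.56), with *Fgf10* at -4.13 and *Pdgfra* at -1.15, each past the test. Smooth muscle genes also lay with the epithelium (7 of 8, median 2.59, *Des* not passing), and their summed linear signal was 46721 to 51363 in epithelium samples and 7151 to 8546 in mesenchyme samples. Mesothelial genes lay with the mesenchyme except *Msln* (7 of 8, median -3.98), as did all 7 erythroid genes analysed (median -3.81) and 5 of 6 leukocyte genes analysed (median -1.75, *Spi1* not passing). In these mixed samples, fewer cells of a type and less RNA per cell cannot be told apart.

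With limma and a threshold of 0.05 on the adjusted p, 6 of the 10 SOX genes were called for the epithelium, 3 for the mesenchyme, and *Sox21* for neither. Over all genes tested 21.2% passed towards the epithelium, 24.8% towards the mesenchyme and 45.9% in either direction. A log2 difference of 1 or more, with the test passed, was reached by 6 of the 10, 3 in each direction, against 13.9% of all genes. The median difference of the 10 genes was 0.25 and that of all genes -0.03, so the genes as a group did not lie on 1 side. All 3 SOXF genes were higher in the mesenchyme, while every other gene that passed was higher in the epithelium. In 9 of the 10 genes the 4 epithelium samples did not overlap the 4 mesenchyme samples, as was the case in 44.3% of all genes. The genes were chosen with earlier results of these data known, so these shares describe the list.

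**Figure D1:**
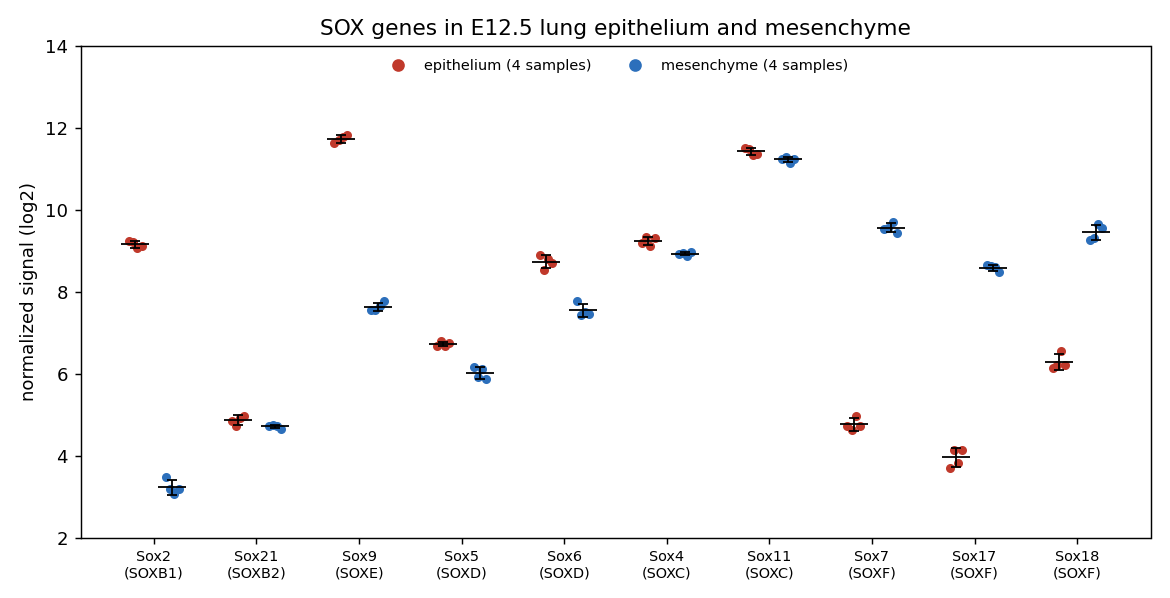
Normalized signal (log2, vertical axis) of the 10 SOX genes in the 4 epithelium samples (red, left of each gene) and the 4 mesenchyme samples (blue, right), with bars for mean and SD; the subgroup is given in brackets. *Sox2* and *Sox9* sit high in the epithelium and *Sox7*, *Sox17* and *Sox18* high in the mesenchyme, while the tissues lie within 0.31 of each other on average for *Sox4*, *Sox11* and *Sox21*.

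*Sox2*, which holds proximal airway progenitors in their identity, had the largest difference of the 10 genes. Its normalized signal was 9.25, 9.23, 9.06 and 9.12 in the epithelium samples, against 3.48, 3.19, 3.06 and 3.19 in the mesenchyme samples. All 4 epithelium samples were far above all 4 mesenchyme samples. The mean was 9.16 ± 0.09 in the epithelium and 3.23 ± 0.18 in the mesenchyme (SD, n = 4 each), a 61.1-fold difference (5.93 with SE 0.09 on the log2 scale, limma adjusted p = 1.20e-09). It ranked 10 of 18996 genes by difference towards the epithelium. In the mesenchyme 29.7% of genes had a mean at or below that of *Sox2*, and with a signal this low the fold is known less well than the direction. The gene had 1 feature on the array, so no other probe could check it. In the paper's control lungs SOX2 protein marked the proximal epithelium, with a clear boundary to the distal region. Whether the epithelium dissected as distal tips reached past that boundary was not tested.

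*Sox2* lies inside the span of the noncoding gene *Sox2ot* in GRCm38.p6, and none of its 3 features passed the test. The brightest *Sox2ot* feature averaged 3.50 ± 0.36 in the epithelium and 3.92 ± 0.23 in the mesenchyme (SD, n = 4 each; -0.42 with SE 0.19 on the log2 scale, limma adjusted p = 0.102), and the other features averaged between 2.06 and 2.44 in each tissue.

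Other genes of the SOX2-positive airway and its descendants were split between the tissues. Of 9 analysed, 3 passed towards the epithelium and 3 towards the mesenchyme, and the median was -0.26. *Trp63*, the basal cell transcription factor, was higher in the epithelium (3.26, SE 0.06), as were *Foxj1*, the regulator of motile cilia (1.44, SE 0.10), and the mucin gene *Muc1* (0.73, SE 0.15). *Krt14*, a basal keratin gene (-1.40, SE 0.09), the Notch effector *Hey1* (-0.66, SE 0.07) and the club cell gene *Scgb1a1* (-0.46, SE 0.10, among the dimmest 30% of genes) were higher in the mesenchyme. *Krt5* (-0.32), *Cyp2f2* (-0.26) and *Tff2* (-0.07) did not pass.

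*Sox21*, a SOXB gene that encodes a repressor, depended on the feature that was read. On its brightest feature the signal was 4.85, 4.72, 4.93 and 4.98 in the epithelium samples, against 4.73, 4.75, 4.74 and 4.66 in the mesenchyme samples. The tissues overlapped, and the log2 difference of 0.15 (SE 0.07, 95% interval -0.001 to 0.31, limma adjusted p = 0.0988) did not pass. Without epithelium sample 2 it passed (0.20, adjusted p = 0.0305). A second feature with the same accession gave 5.69 ± 0.11 in the epithelium and 3.14 ± 0.37 in the mesenchyme (SD, n = 4 each), with 5.74, 5.77, 5.53 and 5.72 in the epithelium samples, against 3.64, 2.86, 2.86 and 3.19 in the mesenchyme samples. That feature was higher in the epithelium by 2.55 (SE 0.17, limma adjusted p = 2.81e-06 over all features), with no overlap. The third read 2.86 in the epithelium and 2.88 in the mesenchyme. With the mean of the 3 features the difference was 0.89 (limma adjusted p = 5.70e-06), so the choice of the brightest feature set the call of this gene.

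*Sox9*, the distal tip progenitor factor, was 17.2-fold higher in the epithelium. The signal was 11.63, 11.69, 11.78 and 11.83 in the epithelium samples, against 7.55, 7.56, 7.66 and 7.77 in the mesenchyme samples. No sample of a tissue came near the other tissue, and the difference on the 4 arrays was 4.08, 4.14, 4.13 and 4.06. On the log2 scale it amounted to 4.10 (SE 0.07, limma adjusted p = 1.83e-09) and ranked 76 of 18996 towards the epithelium. Its mesenchyme mean of 7.63 ± 0.10 (SD, n = 4) was at or above that of 58.5% of genes in that tissue.

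*Sox9* had 13 features, the most of the 10 genes, and all 13 were higher in the epithelium. Of 12 features with the same accession, which may include replicate spots, 11 were bright (over 10 in the epithelium) and gave differences of 3.95 to 4.20. The remaining feature of that accession was dimmer, 5.31 in the epithelium and 3.02 in the mesenchyme, and gave 2.29 (SE 0.23). A feature from another transcript sequence gave 3.78 (SE 0.12).

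The noncoding gene *2610035D17Rik*, which lies on chromosome 11 with *Sox9* and is separated from it by 4 genes in GRCm38.p6, of which 0 are protein-coding, had the same direction. Its signal averaged 7.19 ± 0.06 in the epithelium and 4.83 ± 0.15 in the mesenchyme (SD, n = 4 each; 2.35 with SE 0.08 on the log2 scale, limma adjusted p = 4.05e-08).

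Genes of the SOX9-positive tip were mostly higher in the epithelium, 11 of 12 with a median of 2.53. *Shh*, the Hedgehog ligand of the epithelium (4.69, SE 0.11), the surfactant gene *Sftpc* (4.30, SE 0.10), the lung identity factor *Nkx2-1* (3.40, SE 0.11) and *Etv5*, which responds to FGF signaling (3.17, SE 0.06), differed most. *Etv4*, a close relative of *Etv5*, was higher in the mesenchyme (-0.51 with SE 0.07, limma adjusted p = 0.000245). These are marker genes of the tissue and were chosen as such.

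**Figure D2:**
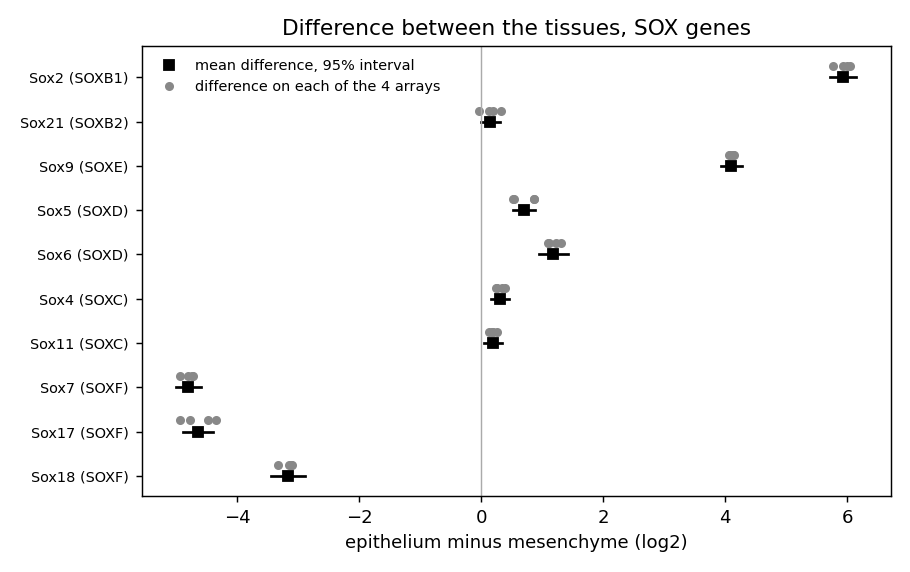
Epithelium minus mesenchyme (log2, horizontal axis) for the 10 SOX genes, with squares and lines for the mean difference and its 95% interval from limma and grey points for the difference on each of the 4 arrays. *Sox2* (5.93) and *Sox9* (4.10) lie far to the right, *Sox7* (-4.80), *Sox17* (-4.63) and *Sox18* (-3.17) far to the left, and the interval of *Sox21* reaches just below 0.

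*Sox5* and *Sox6*, SOXD genes whose proteins lack an activation domain of their own and pair with SOX9 in cartilage, were both higher in the epithelium, by less than *Sox9*. *Sox6* had signals of 8.90, 8.53, 8.81 and 8.70 in the epithelium samples, against 7.79, 7.44, 7.51 and 7.47 in the mesenchyme samples, a 2.28-fold difference without overlap (1.19 with SE 0.11 on the log2 scale, limma adjusted p = 2.01e-05). *Sox5* had 6.69, 6.80, 6.67 and 6.75 in the epithelium samples, against 6.17, 5.93, 6.13 and 5.87 in the mesenchyme samples, a 1.63-fold difference (0.70 with SE 0.08 on the log2 scale, limma adjusted p = 9.32e-05). The differences on the 4 arrays ran from 1.09 to 1.31 for *Sox6* and from 0.52 to 0.88 for *Sox5*. Each array thus showed both genes higher in the epithelium.

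Dimmer features of both genes gave smaller differences. Of 5 *Sox6* features 4 were higher in the epithelium, by 0.60 to 1.19, and the faintest (2.16 in both tissues) gave 0.004. Of 4 *Sox5* features 2 were higher there, by 0.70 and 0.67, and those near 2 in both tissues gave 0.23 and -0.24 and did not pass. With the mean of all features of a gene the differences were 0.65 for *Sox6* and 0.34 for *Sox5*, and both still passed.

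Cartilage matrix genes that SOX9, SOX5 and SOX6 switch on in chondrocytes were also more often higher in the epithelium, 8 of 13, with 1 higher in the mesenchyme and a median of 1.69. *Col2a1*, which encodes type II collagen, averaged 11.51 in the epithelium and 8.57 in the mesenchyme (2.94 with SE 0.10 on the log2 scale, limma adjusted p = 3.80e-08). *Matn4* (3.25, SE 0.15), *Cnmd* (3.03, SE 0.10) and *Col9a3* (2.87, SE 0.06) were the other 3 genes with the largest differences, followed by *Col11a2* (2.84, SE 0.10). *Hapln1*, which encodes a link protein of the matrix, was higher in the mesenchyme (-1.64, SE 0.07). *Acan*, *Col11a1*, *Matn1* and *Matn3* did not pass, with differences between -0.06 and 0.10. *Acan*, the main cartilage proteoglycan gene, averaged 3.86 in the epithelium and 3.76 in the mesenchyme. Smooth muscle genes also lay with the epithelium. The part of such other cells in the differences of these genes and of *Sox9*, *Sox5* and *Sox6* was not tested.

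The SOXC genes *Sox4* and *Sox11* differed little between the tissues. *Sox4* had signals of 9.20, 9.34, 9.13 and 9.31 in the epithelium samples, against 8.93, 8.95, 8.88 and 8.97 in the mesenchyme samples, without overlap (1.24-fold, 0.31 with SE 0.06 on the log2 scale, limma adjusted p = 0.00339). *Sox11* had 11.50, 11.49, 11.34 and 11.37 in the epithelium samples, against 11.24, 11.30, 11.14 and 11.24 in the mesenchyme samples. The epithelium samples of *Sox11* lay just above the mesenchyme samples, the lowest at 11.34 and the highest mesenchyme sample at 11.30. Its difference of 0.20 (1.14-fold, SE 0.06, limma adjusted p = 0.0303) was the smallest of the 9 SOX genes that passed.

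In the unpaired fit the call of *Sox11* was not stable. With the array as a block, which pairs the samples, it passed with an adjusted p of 0.00729 from limma (SE 0.03), whereas the unpaired call was lost when any 1 of 5 of the 8 samples was left out. Without epithelium sample 1 or 2 the adjusted p from limma was 0.0838 or 0.0831, and without mesenchyme sample 1, 3 or 4 it was 0.0590, 0.0745 or 0.0549, with differences of 0.17 to 0.20. All 6 features of the gene had a positive difference, from 0.17 to 0.50, and 5 of them passed over all features, of which 41.4% passed. These features were read on the same 8 samples, so they are not replicates and cannot settle the call. On each of the 4 arrays *Sox11* and *Sox4* were both higher in the epithelium, by 0.13 to 0.27 and 0.25 to 0.40. Of 5 genes associated with SOXC factors, the tubulin gene *Tubb3* (1.54, SE 0.07), *Stmn2* (2.17, SE 0.12) and *Mex3a* (0.24, SE 0.08) were higher in the epithelium, *Dcx*, which encodes doublecortin, was higher in the mesenchyme (-3.26, SE 0.08), and *Tead2*, a partner of YAP, did not pass (-0.004).

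All 3 SOXF genes were higher in the mesenchyme. *Sox7*, which acts in endothelial precursors, had signals of 4.72, 4.63, 4.98 and 4.73 in the epithelium samples, against 9.53, 9.56, 9.71 and 9.45 in the mesenchyme samples. It was 27.8-fold lower in the epithelium (-4.80 with SE 0.09 on the log2 scale, limma adjusted p = 2.10e-09) and ranked 8 of 18996 towards the mesenchyme. Every mesenchyme sample was far above every epithelium sample. In the epithelium 40.6% of genes had a mean at or below that of *Sox7*, so its fold is less certain than its direction.

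*Sox17*, known both for definitive endoderm and for arterial endothelium, had 3.71, 4.15, 3.83 and 4.14 in the epithelium samples, against 8.65, 8.63, 8.60 and 8.49 in the mesenchyme samples. It was 24.8-fold lower in the epithelium (-4.63 with SE 0.11 on the log2 scale, limma adjusted p = 4.95e-09), and 35.7% of genes had an epithelium mean at or below its own. The size of that fold is likewise less certain than its direction. *Sox18*, which acts in vascular and lymphatic endothelium, had 6.13, 6.21, 6.56 and 6.22 in the epithelium samples, against 9.27, 9.32, 9.65 and 9.55 in the mesenchyme samples, and was 8.98-fold lower in the epithelium (-3.17 with SE 0.12 on the log2 scale, limma adjusted p = 6.61e-08). On the 4 arrays the difference ran from -4.93 to -4.72 for *Sox7*, from -4.94 to -4.34 for *Sox17* and from -3.33 to -3.09 for *Sox18*, so the ranges of *Sox7* and *Sox17* overlapped. As each value comes from another probe, the sizes do not compare amounts of RNA between the genes.

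The other features of the SOXF genes kept the sign but not always the size. The second *Sox7* feature gave -1.50 (SE 0.13), with 3.66 in the epithelium and 5.16 in the mesenchyme. Of 4 *Sox17* features, 2 were higher in the mesenchyme, by 4.63 and 3.49, and the others lay near 2 in both tissues and gave -0.07 and -0.13, neither of which passed. *Sox18* had 1 feature. With the mean over features *Sox7* differed by -3.15 and *Sox17* by -2.08, and with only the features of 1 accession averaged *Sox17* differed by -2.73.

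**Figure D3:**
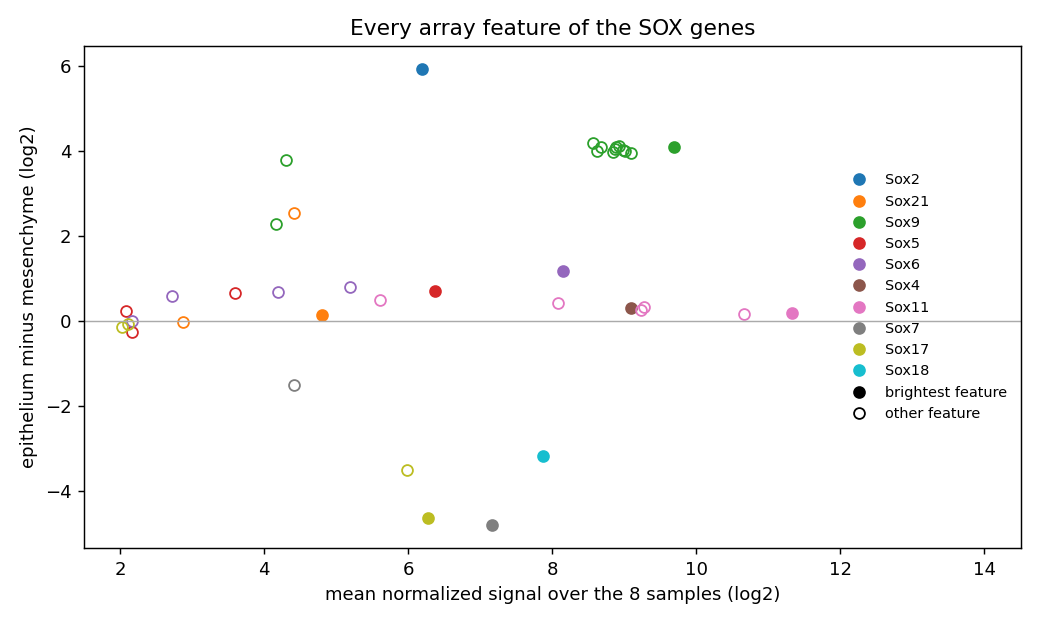
Epithelium minus mesenchyme (log2, vertical axis) against the mean normalized signal over the 8 samples (log2, horizontal axis) for all 40 array features of the 10 SOX genes, filled for the brightest feature of a gene and open for the others. The features of *Sox9* with a bright signal lie together near 4.05, *Sox21* has an open point at 2.55 above its filled one at 0.15, and faint features of *Sox5*, *Sox6* and *Sox17* lie near 0.

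Endothelial genes had the same direction as the SOXF genes. Of 16 endothelial identity genes all 16 were higher in the mesenchyme, and their summed signal on the linear scale was 2335 to 2636 in the epithelium samples and 21214 to 22619 in the mesenchyme samples. *Tal1*, a transcription factor of blood and endothelium (-4.72, SE 0.07), *Cdh5*, which encodes VE-cadherin (-4.68, SE 0.08), *Emcn* (-4.27, SE 0.07) and the VEGF receptor gene *Kdr* (-4.23, SE 0.09) differed most, and none of the 16 was among the dimmest 30% of genes. The part of vessel content in the SOXF differences was not tested. Arterial and lymphatic genes were mixed, with 6 of 10 passing towards the mesenchyme, 3 towards the epithelium and a median of -1.15. The connexin genes *Gja4* (-3.79, SE 0.05) and *Gja5* (-3.69, SE 0.12), the hyaluronan receptor gene *Lyve1* (-3.67, SE 0.08) and *Notch4* (-2.41, SE 0.07) lay with the SOXF genes. The lymphatic regulator gene *Prox1* (2.38, SE 0.14), *Cxcr4* (1.63, SE 0.09) and the ephrin gene *Efnb2* (1.57, SE 0.05) were instead higher in the epithelium. *Dll4*, an arterial Notch ligand gene, did not pass (-0.72, limma adjusted p = 0.0686).

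Among the 10 further SOX family genes on the array, 1 passed towards the epithelium, 2 towards the mesenchyme and 7 not at all, with a median of -0.09, and 5 of them were among the dimmest 30% of genes. *Sox10*, the neural crest and glial factor, had 6.13, 5.70, 6.04 and 5.69 in the epithelium samples, against 5.11, 4.88, 4.87 and 5.06 in the mesenchyme samples (0.91 with SE 0.12 on the log2 scale, limma adjusted p = 0.000259), and its second, dim feature gave 0.29 (adjusted p = 0.197). *Sox13*, the third SOXD gene, went the other way from *Sox5* and *Sox6*, with 7.45 to 7.52 in the epithelium samples and 7.68 to 7.80 in the mesenchyme samples (-0.27 with SE 0.05, limma adjusted p = 0.00213). *Sox30* also passed towards the mesenchyme (-0.25, SE 0.07), at signals near 2 in both tissues. *Sox12*, the third SOXC gene, averaged 4.66 in the epithelium and 4.65 in the mesenchyme, a difference of 0.01 with a 95% interval of -0.25 to 0.27. *Sox1*, *Sox3*, *Sox8*, *Sox14*, *Sox15* and *Sry* did not pass either, with differences between -0.30 and 0.09, and neither did the noncoding *Sox5os3* (-0.32).

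Most markers of neural crest, glia and neurons had the direction of *Sox10*, but 2 glial genes went the other way. Of 10 analysed, 7 passed towards the epithelium and 2 the other way (median 1.32), and their summed signal was 1144 to 1258 in the epithelium samples and 675 to 730 in the mesenchyme samples. The neuronal intermediate filament genes *Prph* (2.76, SE 0.09) and *Nefl* (2.63, SE 0.10) and the RNA binding protein gene *Elavl3* (1.97, SE 0.09) differed most. *Erbb3*, a receptor gene of glia, was higher in the epithelium but among the dimmest 30% of genes (1.74, SE 0.07). The glial genes *S100b* (-0.88) and *Fabp7* (-0.87) were higher in the mesenchyme, and *Ret* did not pass (-0.09). Neural cells express *Sox2*, *Sox21*, *Sox4* and *Sox11* too, and the part of these cells in the differences of *Sox10* and those 4 genes was not tested.

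**Figure D4:**
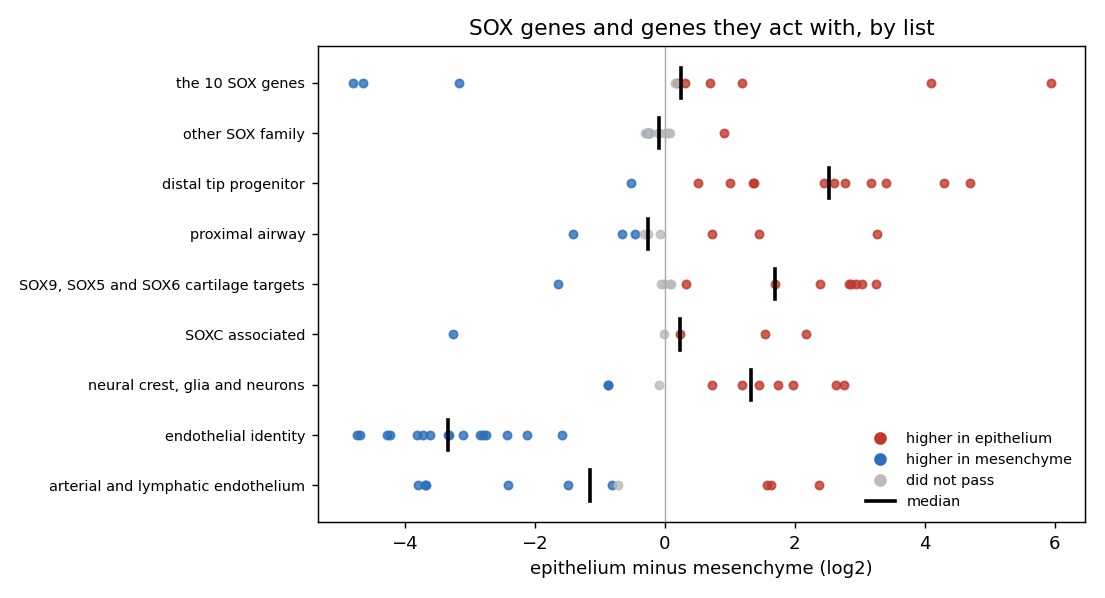
Epithelium minus mesenchyme (log2, horizontal axis) for the genes analysed in each list, red where higher in the epithelium, blue where higher in the mesenchyme and grey where the test was not passed, with a black bar at the median. The distal tip genes have a median of 2.53 and the cartilage matrix genes of 1.69, while all 16 endothelial genes lie to the left, with a median of -3.32.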

How the data were processed

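Total RNA of E12.5 lung epithelium and mesenchyme was hybridised to Agilent arrays of 2 colours. The deposited values are log2 signals: the authors, by their methods, applied normexp background correction (offset 1), a logarithm, quantile normalization and averaging of replicate spots, in limma. The base of the logarithm was inferred from the range, and the averaging step was not seen in the table, which has 1 value for each of 45220 features. Depth does not apply to arrays, and the number of arrays limits the precision. No background flag was used here. The methods name only Cy3 for the hybridised RNA, and the paper states a smaller n for this comparison than the samples analysed here.

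Features were named from the platform annotation, and 33517 of 33653 features with 1 gene matched RefSeq (GRCm38.p6). Features without a gene name (11511) or with several genes (56) were left out, as were those with a missing value (523 of all 45220 features). The brightest feature stood for each gene. Tissues were compared unpaired with lmFit and eBayes in limma 3.58.1 (R 4.3.3) and Benjamini-Hochberg adjustment over 18996 genes, or over 33325 features. Gene lists were counted without a set test. The members and lists were chosen with earlier results of these data known. Named genes were the 10 members, all further SOX genes, *Foxa2*, *Cdh1*, *Fgf10* and *Pdgfra*, the 4 genes of each list with the largest differences that passed, and a list's exceptions where 5 or fewer. Of the epithelial, mesenchymal, smooth muscle, mesothelial, leukocyte and erythroid lists only those 4 checks and the exceptions are named.

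Samples sharing an array deviated together, with correlations of 0.35, 0.62, 0.53 and 0.47 across genes, so the replicate numbers, which the labels tie to shared arrays, pair the samples. The spread behind each p-value is that among these 8 samples and may be technical. The code was tested on simulated data. Alternatives were the array as a block, each sample or array left out, all probes averaged, and features with the same accession averaged. Others were dim genes left out, medians subtracted, a trended robust variance, and missing values kept. Features with the same accession can be different probes or replicate spots. Plots used matplotlib 3.10.9, pandas 2.3.3 and Python 3.11.15.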

Additional observations from a re-analysis of the deposited data

Results flagged for a closer look

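Among 46 groups of 4 samples examined for the SOX genes and the transcripts beside them, 3 held a sample far from the others by Dixon's criterion, which chance meets in about 1 of 20 groups. None of the 3 belonged to the 10 SOX genes described. *Sox15* read 3.88 in mesenchyme sample 4, against 4.41 to 4.49 in the other mesenchyme samples. *Sox5os3* read 2.27 in epithelium sample 1, against 1.98 to 2.03 in the other epithelium samples, and 3.06 in mesenchyme sample 3, against 2.15 to 2.23 in the other mesenchyme samples.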

How the results depend on the processing

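Each result was computed under 19 alternatives, of which averaging features with the same accession was added after the data were seen. All 3 SOXF genes, *Sox2*, *Sox9*, *Sox4*, *Sox5* and *Sox6* kept their direction and their call under all 19. With the array as a replicate block 5035 genes passed towards the epithelium and 5877 towards the mesenchyme, against 4024 and 4704 without it, and the block changed no call of the 10 genes (*Sox11* adjusted p = 0.00729 from limma). Leaving out a sample or an array gave 3431 to 3870 genes towards the epithelium and 3999 to 4570 towards the mesenchyme, and 5 to 6 of the 10 SOX genes higher in the epithelium.

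*Sox11* and *Sox21* changed. *Sox11* missed the threshold with features of the same accession averaged (0.18, adjusted p = 0.0511 from limma). It also missed it in 9 of the settings that left out a sample or an array. In those its difference was 0.17 to 0.20 without a sample and 0.17, 0.20, 0.19 and 0.22 without array 1, 2, 3 and 4. Over all settings that left out a sample or an array it was 0.17 to 0.22. *Sox21* passed with all probes averaged (0.89) and with features of the same accession averaged (0.89, since its 3 features share an accession). Where samples or arrays were left out, its difference was 0.12 to 0.20 without a sample and 0.10 to 0.21 without an array. It passed without epithelium sample 2 or without array 2. Removing the sample medians shifted the median of all genes by -0.004. For *Sox7*, *Sox17*, *Sox5* and *Sox6* the mean over probes gave smaller differences (-3.15, -2.08, 0.34 and 0.65), as it includes features with faint signals. Averaging features with the same accession likewise gave -2.73 for *Sox17* and 0.82 for *Sox6*.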
